A study of Anas platyrhynchos with 16 samples.

Results

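Potassium channel genes were taken as every entry of the deposited expression table whose gene symbol starts with KCN followed by a letter. This gave 63 of the 24263 genes in the table. By symbol they comprised 28 pore-forming subunits of voltage-gated channels, 10 auxiliary subunits, 8 inward rectifiers, 9 two-pore channels, 7 subunits of calcium- or sodium-activated channels, and KCNRG, a regulator of channel assembly. Potassium channels let potassium leave or enter the cell and so set the resting potential, end each action potential and space the next one. Voltage-gated channels open on depolarisation, inward rectifiers and two-pore channels carry resting currents, and calcium-activated channels couple calcium entry to repolarisation. In the hypothalamus they shape the firing of neurons that control hormone release, and in the pituitary, whose endocrine cells are themselves excitable, they shape the calcium signals behind secretion.

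RNA had been sequenced from the hypothalamus and the pituitary of Shanma ducks (Anas platyrhynchos) aged 113 days, 16 libraries in total and 4 per combination of tissue and housing. The caged ducks, 15 in number, had been moved at 110 days of age to 3 cages of 100 × 45 × 50 cm and received 16 h of light, whereas the floor-water ducks, also 15, stayed in a floor-water system under natural light. Housing and lighting therefore differed together and cannot be told apart. The labels give neither sex nor the bird or cage behind each library, so the spread between libraries may be partly technical and libraries may share a cage.

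Library totals ran from 38853215 to 67175356 counts. The tissue labels were matched by markers fixed for these cell types. The 5 neuron markers found, SNAP25 among them, summed to 1680 to 2450 FPKM (fragments per kilobase of transcript, scaled to library size) in hypothalamus and 138 to 294 FPKM in pituitary. The 9 pituitary endocrine markers found, including growth hormone, summed to 138000 to 202000 FPKM in pituitary and 69.0 to 29800 FPKM in hypothalamus. Some libraries carried transcripts of the other tissue. A share was computed as the median level of 25 pituitary-restricted genes in hypothalamus libraries, relative to pituitary, and of 72 hypothalamus-restricted genes in pituitary libraries, relative to hypothalamus. This share was 21.6% in caged hypothalamus library 4, against 0.029% to 4.33% in the other hypothalamus libraries. It was 4.12% in caged pituitary library 2, 4.01% in floor-water pituitary library 2 and 4.73% in floor-water pituitary library 4, against 0.0033% to 0.462% in the remaining 5 pituitary libraries. Caged hypothalamus library 2 held 20500 FPKM of TTR, a choroid plexus marker, against 8.61 to 662 FPKM in the other 7. These 5 libraries are said to stand apart below, and calls named below that are lost without them are given with that value. Caged hypothalamus libraries 1 and 3, with shares of 3.2% and 4.33%, are not among them and stay in those fits.

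The hypothalamus expressed more of the family. On the FPKM scale, 49 of the 63 members averaged at least 1 FPKM over the 8 hypothalamus libraries and 14 averaged at least 10 FPKM. In the pituitary, 34 averaged at least 1 FPKM and 5 at least 10 FPKM. Summed over all members, the level was 414 ± 19.5 FPKM in caged hypothalamus, 502 ± 37.0 FPKM in floor-water hypothalamus, 174 ± 7.72 FPKM in caged pituitary and 192 ± 19.6 FPKM in floor-water pituitary (SD, n = 4 each). The heat map of members by library shows the tissue contrast in nearly every family.

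**Figure D1:**
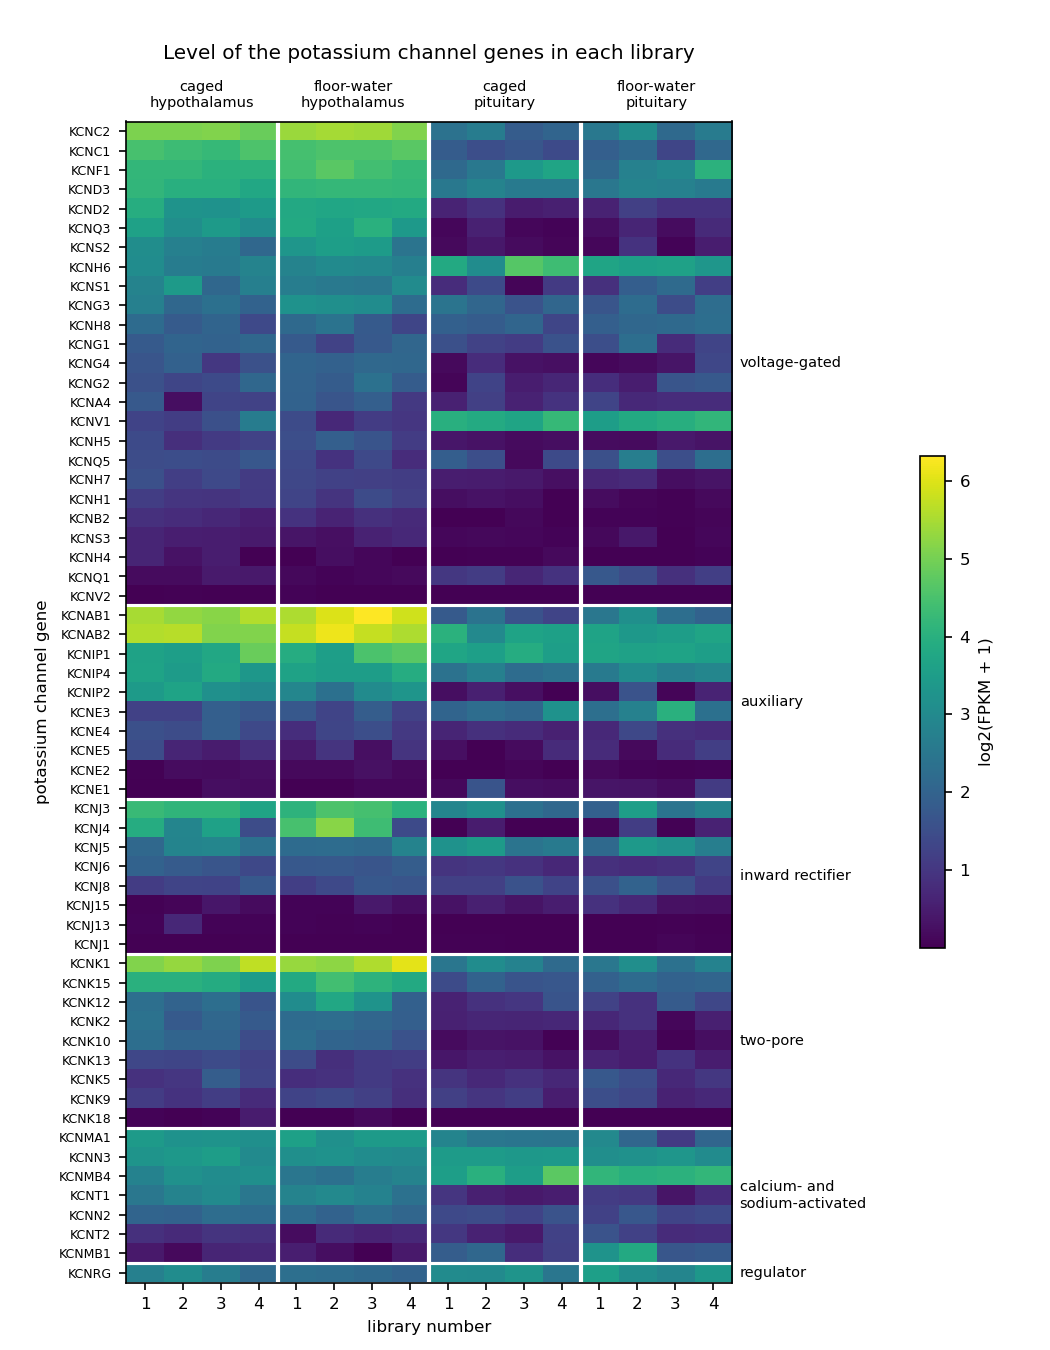
Level of 60 of the 63 potassium channel genes (rows, by family and by mean hypothalamus level) in each of the 16 libraries (columns, library numbers 1 to 4 in each group), as log2(FPKM + 1). KCNAB1, KCNAB2, KCNK1 and KCNC2 are brightest in hypothalamus, and KCNV1, KCNH6 and KCNMB4 are brighter in pituitary.

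The makeup of the family also differed. Calcium- and sodium-activated subunits made up 8.49% ± 0.941 of the summed member FPKM in caged hypothalamus and 6.46% ± 0.605 in floor-water hypothalamus. In pituitary the shares were 20.2% ± 3.34 in caged and 19.9% ± 3.61 in floor-water ducks (SD, n = 4 each). No pituitary library, at 16.3% or more, came within the hypothalamus range, which ended at 9.73%. The summed level of these subunits differed little, at 35.1 and 32.3 FPKM in hypothalamus and 35.3 and 38.1 FPKM in pituitary (caged first). Their larger share thus went with a lower total of all members in pituitary. The beta subunits KCNMB1 and KCNMB4 are counted here and not among the auxiliary subunits. Both had higher means in pituitary, with KCNMB4 at 15.4 and 16.2 against 7.33 and 5.0 FPKM (caged first). The pores KCNMA1, KCNN2 and KCNT1 had lower means there, with KCNMA1 at 4.94 and 3.59 against 8.6 and 9.69 FPKM. KCNN3 had slightly higher means in pituitary, and KCNT2 was higher in floor-water ducks only. The share and sum of this family therefore describe pores and beta subunits together, not the pores alone. The share of two-pore channels went the other way, at 16.0% ± 1.33 and 16.1% ± 2.07 in hypothalamus against 6.71% ± 1.3 and 7.39% ± 0.735 in pituitary (caged first). Voltage-gated subunits averaged between 36.3% and 39.2% of the summed level in each of the 4 groups, and inward rectifiers between 8.07% and 9.23%. Single libraries ran from 33.3% to 42.8% and from 5.45% to 12.3%. All these shares leave out channel entries listed by locus number. One such entry, described as a copy of the KCNJ3 product, averaged 18.9 and 23.5 FPKM in hypothalamus and 3.51 and 3.94 FPKM in pituitary (caged first). The similar shares of inward rectifiers in both tissues therefore hold only for members named by symbol.

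In the hypothalamus the leading members were auxiliary subunits and channels of fast or resting potassium currents. KCNAB1 and KCNAB2, cytoplasmic beta subunits of the KCNA channels, were highest by mean FPKM. KCNAB1 measured 44.0, 38.5, 35.3 and 47.4 FPKM in the caged and 45.8, 62.8, 78.7 and 57.1 FPKM in the floor-water libraries. KCNAB2 measured 47.3, 48.8, 33.8 and 34 FPKM in the caged and 52.9, 70.7, 53.2 and 45.2 FPKM in the floor-water libraries. Each gene's floor-water libraries reached higher than its caged ones, with overlap, and the pair cannot be ranked within that spread. KCNK1, a two-pore channel of weak inward rectification, ranged from 32.9 to 65.9 FPKM. KCNC2 and KCNC1, which give fast-spiking neurons their rapid repolarisation, ranged from 28.3 to 43.3 FPKM and from 17.9 to 24.9 FPKM.

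The next members spanned several roles. KCNF1, a subunit that forms no channel alone and modifies others, ranged from 15.5 to 24.8 FPKM in hypothalamus. KCNJ3, a G protein-gated inward rectifier, ranged from 12 to 22.4 FPKM, and KCND3, which carries A-type current, from 12.7 to 17.6 FPKM. These 3 ranges overlap, so the genes cannot be ordered by library values. KCNMA1, the pore of the large-conductance calcium-activated channel, ranged from 7.82 to 11.1 FPKM, KCNN3, a small-conductance one, from 7.08 to 10.5 FPKM, and KCNN2, its relative, from 2.97 to 3.85 FPKM. Within the groups, spread differed by member: the coefficient of variation over members of at least 1 FPKM had a median of 24.1% in caged and 22.4% in floor-water hypothalamus, from 2.03% for KCND3 in floor-water to 78.0% for KCNV1 in caged libraries.

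Fold changes between tissues came from edgeR's quasi-likelihood test on counts, fitted over all genes within 1 housing, and p-values were adjusted by Benjamini-Hochberg; genes with an adjusted p under 0.05 are called. Low counts left KCNH4, KCNJ1, KCNK18 and KCNV2 untested between tissues, and KCNK18 was listed at 0 in all 8 pituitary libraries. In floor-water ducks, 12 of the 59 tested members were called higher in pituitary and 30 lower, against 28.5% and 27.8% of the 15878 genes tested. In caged ducks, 8 were called higher and 33 lower, against 27.3% and 26.8% of 15854 genes. Groups without overlap between tissues were seen for 10 members higher and 30 lower in floor-water ducks, against 22.3% and 31.6% of all genes, and for 5 and 34 in caged ducks, against 16.9% and 35.3%. The median log2 fold change of the members was -1.05 in floor-water and -1.22 in caged ducks, against 0.071 and 0.065 over all genes tested. In bulk tissue, fewer cells of a type and less RNA per cell cannot be told apart.

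The 2 housings share no library, and their tissue differences agreed in direction for 55 of the 59 members. There were 6 higher and 27 lower calls in pituitary made in both housings, and 0 members were called in opposite directions. The log2 fold changes of the 59 members had a Pearson r of 0.911 between housings, a description across genes, which are not independent replicates. Agreement between housings over all genes is not given here, so whether it is particular to the members cannot be said. In neither housing were 9 members called, among them KCNIP1, KCNJ8 and KCNK9. The plot of tissue differences in both housings shows all 59 members. TMM scaling of the counts sets the zero of the fold changes: for members of at least 1 FPKM in a group, fitted values lay a median of 0.21 above the log2 ratio of mean FPKM in floor-water and 0.35 in caged ducks.

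**Figure D2:**
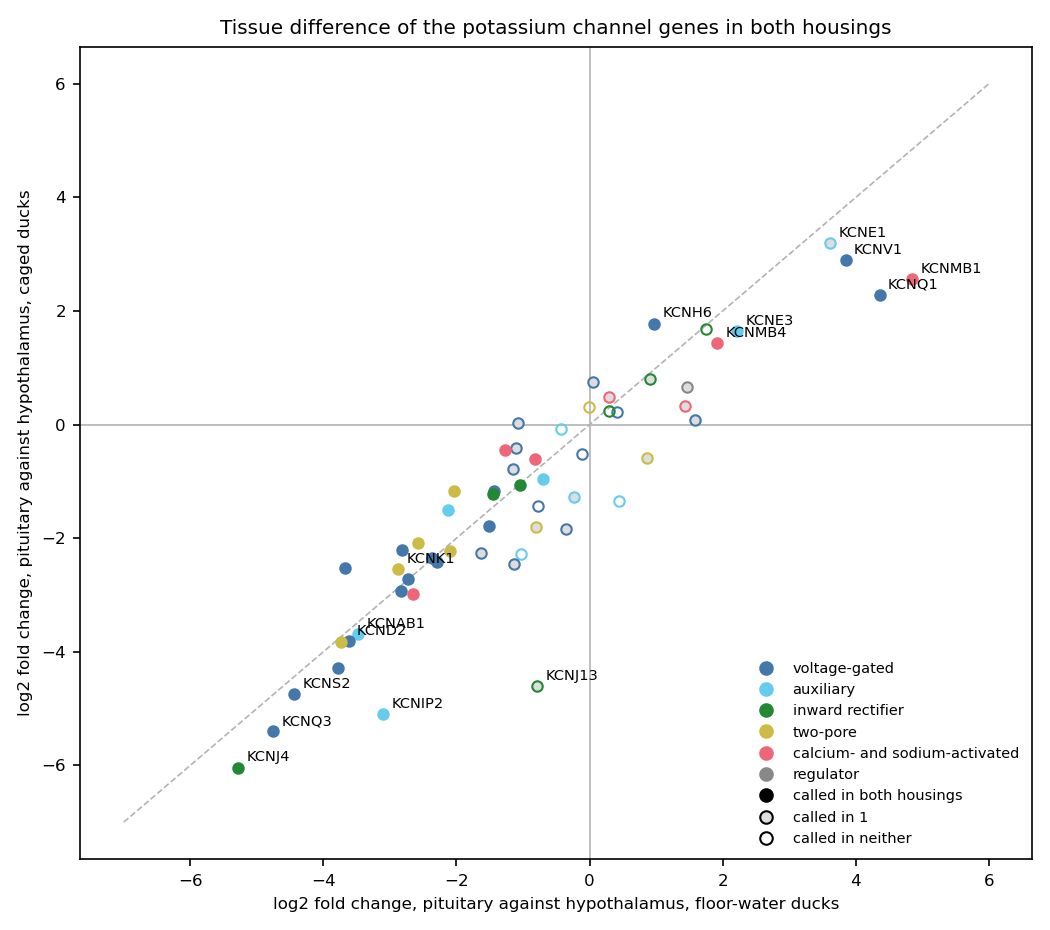
Log2 fold change, pituitary against hypothalamus, in floor-water ducks (x axis) and caged ducks (y axis), for the 59 members tested in both; colour gives the family and filling whether the gene passed an adjusted p of 0.05 (edgeR) in both housings, in 1 or in neither. For 55 members both values have the same sign, from KCNJ4 at -5.28 and -6.04 to KCNMB1 at 4.85 and 2.56, and members such as KCNMB1, KCNQ1, KCNIP2 and KCNJ13 lie away from the dashed line of equal change.

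By family, voltage-gated subunits had 15 of 26 tested members called lower in pituitary and 4 called higher in each housing. Two-pore channels had 5 of 8 called lower in floor-water and 6 of 8 in caged ducks, with 1 and 0 called higher. Calcium- and sodium-activated subunits had 3 called higher and 3 lower of 7 in each housing. Inward rectifiers had 3 and 4 of 7 called lower and 1 and 0 called higher, and auxiliary subunits had 4 and 5 of 10 called lower and 2 and 1 called higher (floor-water first). Over all genes tested, 28.5% were called higher and 27.8% lower in floor-water ducks, and 27.3% and 26.8% in caged ducks. No test compared the family counts, which rest on few genes, with those shares.

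The 6 members higher in pituitary in both housings belong to 3 families. KCNV1, a silent subunit that modifies the currents of other voltage-gated subunits, measured 14.7, 13.6, 11.8 and 17.7 FPKM in caged pituitary and 10.4, 13.4, 14.5 and 16.8 FPKM in floor-water pituitary. In hypothalamus it measured 1.40, 1.22, 1.89 and 5.29 FPKM in caged and 1.74, 0.651, 1.16 and 0.991 FPKM in floor-water libraries. All pituitary libraries were above all hypothalamus libraries, and the highest of the latter, caged library 4, was the one with the largest pituitary share. The log2 fold change was 3.85 ± 0.33 (SE; edgeR adjusted p = 1.86e-05) in floor-water and 2.90 ± 0.48 (edgeR adjusted p = 0.00103) in caged ducks.

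KCNMB4, the beta subunit of the large-conductance calcium-activated channel that in mammals is typical of neurons, was the member with the highest mean FPKM in pituitary. It measured 10.7, 15.0, 10.4 and 25.6 FPKM in caged and 16.7, 14.8, 15.8 and 17.3 FPKM in floor-water pituitary, against 4.03 to 8.10 FPKM in hypothalamus. The log2 fold change was 1.92 ± 0.20 (edgeR adjusted p = 5.14e-05) in floor-water and 1.43 ± 0.32 (edgeR adjusted p = 0.0049) in caged ducks. Its pore partner KCNMA1 was lower in pituitary, at 1.12 to 6.83 against 7.82 to 11.1 FPKM, with log2 fold changes of -1.27 ± 0.38 (edgeR adjusted p = 0.0182) and -0.45 ± 0.15 (edgeR adjusted p = 0.0334). KCNMB4 and the pore of the same channel thus differed between tissues in opposite directions in both housings, although the caged call for KCNMA1 was made in 10 of 17 alternative settings. This does not hold for every beta subunit. An entry listed by a locus number and described as beta-2 had lower means in pituitary, as the pore did. It averaged 0.557 and 1.15 FPKM there against 3.55 and 3.89 FPKM in hypothalamus (caged first) and was not tested. Without the libraries that stand apart KCNMA1 was called in neither housing, at -1.13 in floor-water and -0.56 in caged ducks (edgeR adjusted p = 0.118 and 0.094).

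KCNMB1, the beta subunit known from smooth muscle, measured 2.61, 3.35, 0.770 and 1.28 FPKM in caged and 8.49, 13.3, 2.25 and 2.43 FPKM in floor-water pituitary, against at most 0.638 FPKM in hypothalamus. The log2 fold change was 4.85 ± 0.99 (edgeR adjusted p = 0.00246) in floor-water and 2.56 ± 0.66 (edgeR adjusted p = 0.00956) in caged ducks. With the library number as a block, the caged value was 2.50 and was no longer called (edgeR adjusted p = 0.0529). In the reference gene table KCNMB1 overlaps KCNIP1 on the opposite strand; no source used here states whether counting used strand, so reads of this pair cannot be told apart. KCNIP1, a calcium-binding partner of A-type channels, was itself called in neither housing, at 10.6 to 14 FPKM in pituitary and 10.6 to 28.2 FPKM in hypothalamus.

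KCNQ1, whose channels serve epithelia and heart in mammals, measured 1.04, 1.16, 0.609 and 0.906 FPKM in caged and 2.32, 1.79, 0.835 and 1.26 FPKM in floor-water pituitary. In hypothalamus it stayed between 0.0396 and 0.370 FPKM, so the tissues did not overlap. Its log2 fold change was 4.36 ± 0.40 (edgeR adjusted p = 2.29e-05) in floor-water and 2.28 ± 0.41 (edgeR adjusted p = 0.00162) in caged ducks. KCNE3, which holds KCNQ1 channels open in epithelia, measured 3.12, 3.81, 3.35 and 8.35 FPKM in caged and 3.98, 5.90, 15.1 and 4.05 FPKM in floor-water pituitary, against 1.32 to 2.77 FPKM in hypothalamus. Both genes were thus higher in every pituitary library than in any hypothalamus library. For KCNE3 the log2 fold change was 2.22 ± 0.56 (edgeR adjusted p = 0.0076) in floor-water ducks, 1.37 and still called without floor-water pituitary library 3, and 1.65 ± 0.44 (edgeR adjusted p = 0.0113) in caged ducks. A further entry of the table, listed by a locus number, is described as KCNQ1 too and averaged 0.127 to 0.238 FPKM in the 4 groups; how reads were split between such copies is not known here.

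KCNH6, of the ether-a-go-go-related channels whose current has been recorded in rat prolactin cells, measured 13.2, 7.43, 24.1 and 19.4 FPKM in caged and 11.8, 10.8, 11.3 and 8.96 FPKM in floor-water pituitary. It ranged from 4.95 to 7.48 FPKM in hypothalamus, so that only caged pituitary library 2 touched that range. The log2 fold change was 0.97 ± 0.17 (edgeR adjusted p = 0.000928) in floor-water and 1.78 ± 0.34 (edgeR adjusted p = 0.00223) in caged ducks. Its relative KCNH7 was lower in pituitary, at 0.169 to 0.672 against 1.13 to 1.92 FPKM, with log2 fold changes of -1.51 ± 0.35 (edgeR adjusted p = 0.00468) and -1.78 ± 0.29 (edgeR adjusted p = 0.000971).

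**Figure D3:**
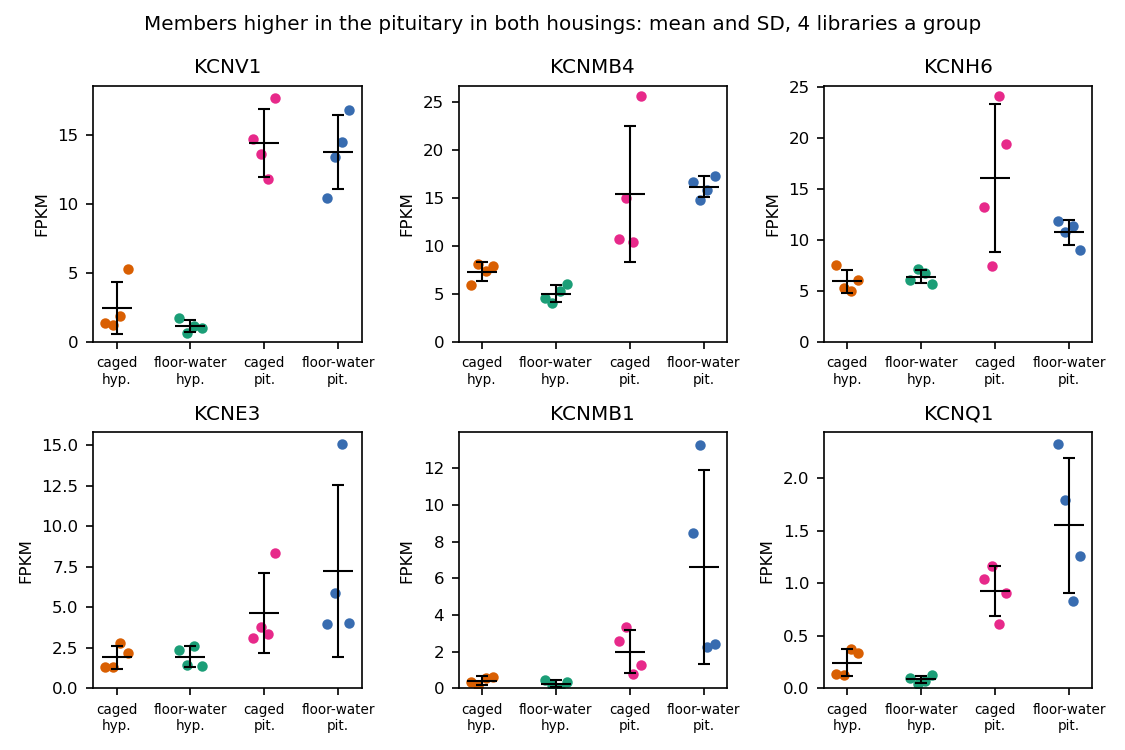
FPKM of the 6 members called higher in pituitary in both housings, by group (hyp., hypothalamus; pit., pituitary): each point is 1 library, the long bar the mean and the whiskers the SD of 4 libraries. For KCNV1, KCNMB4, KCNE3, KCNMB1 and KCNQ1 every pituitary point is above every hypothalamus point, and for KCNH6 1 caged pituitary library, at 7.43 FPKM, is not.

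Without the libraries that stand apart, 8 members were called higher in floor-water and 4 in caged ducks. The share of all genes called in that fit is not given here. KCNE3, KCNMB1 and KCNMB4 were not called in caged ducks in that fit, which had fewer libraries, at log2 fold changes of 1.59, 2.03 and 1.54 (edgeR adjusted p = 0.1, 0.0824 and 0.0515). The other higher calls were made in 1 housing. KCNQ5, a subunit of the slow M-current, measured 1.89, 5.47, 1.84 and 3.84 FPKM in floor-water pituitary and 0.746 to 1.65 FPKM in floor-water hypothalamus, a log2 fold change of 1.59 ± 0.38 (edgeR adjusted p = 0.00579). Without floor-water pituitary libraries 2 and 4 it was 0.89 and not called (edgeR adjusted p = 0.074). KCNRG measured 6.31 to 10.8 FPKM in floor-water pituitary and 3 to 3.98 FPKM in floor-water hypothalamus, a log2 fold change of 1.46 ± 0.18 (edgeR adjusted p = 0.000146). In caged ducks its value was 0.66 ± 0.26 (edgeR adjusted p = 0.0545; 0.0255 with the library number as a block). In caged ducks KCNN3 was called higher, at 0.49 ± 0.13 (edgeR adjusted p = 0.0125), and was not called without the libraries that stand apart (edgeR adjusted p = 0.166). For KCNT2, a sodium-activated pore, the floor-water value was 1.44 ± 0.47 (edgeR adjusted p = 0.0261), and for KCNJ5 it was 0.91 ± 0.35 (edgeR adjusted p = 0.0488). Of 17 alternative settings, KCNT2 was called in 12 and KCNJ5 in 5; leaving out floor-water pituitary library 1 gave 1.11 for KCNT2 (edgeR adjusted p = 0.075) and leaving out floor-water pituitary library 3 gave 0.68 for KCNJ5 (edgeR adjusted p = 0.136). KCNJ5 was not called without the libraries that stand apart either (edgeR adjusted p = 0.158). Whether the tissue difference itself differed between housings is the question of the interaction test given last. In edgeR that test called 0 of all 17010 genes, so it cannot show that the difference was the same in both housings.

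Among members lower in pituitary, KCNJ4, KCNQ3 and KCNS2 had the most negative log2 fold changes in floor-water ducks, and the same 3 with KCNIP2 in caged ducks. KCNJ4, a strong inward rectifier of forebrain neurons in mammals, measured 14.1, 6.34, 11.2 and 1.75 FPKM in caged and 21.2, 35.6, 19.6 and 1.67 FPKM in floor-water hypothalamus. In pituitary it was listed at 0 in caged libraries 1, 3 and 4, at 0.400 FPKM in caged library 2, and at 0.0685, 1.23, 0.0180 and 0.532 FPKM in floor-water libraries. The tissues did not overlap, and library 4 was the lowest of each hypothalamus group. Its log2 fold change was -5.28 ± 1.20 (edgeR adjusted p = 0.00451) in floor-water and -6.04 ± 1.52 (edgeR adjusted p = 0.00887) in caged ducks, the latter against 3 libraries without a count.

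KCNQ3, a pore subunit of the M-current that steadies resting neurons, measured 11.3, 7.64, 9.85 and 7.39 FPKM in caged and 13.2, 11.0, 15.0 and 9.53 FPKM in floor-water hypothalamus, and 0.0367 to 0.682 FPKM in pituitary. The log2 fold change was -4.75 ± 0.48 (edgeR adjusted p = 4.05e-05) in floor-water and -5.40 ± 0.77 (edgeR adjusted p = 0.000478) in caged ducks. KCNS2, another silent subunit, ranged from 3.35 to 10.6 FPKM in hypothalamus and from 0.0398 to 0.900 FPKM in pituitary, with log2 fold changes of -4.44 ± 0.81 (edgeR adjusted p = 0.00135) and -4.74 ± 0.49 (edgeR adjusted p = 0.000104). KCNIP2, a partner of A-type channels, ranged from 4.01 to 11.7 FPKM in hypothalamus and from 0 to 2.09 FPKM in pituitary, with log2 fold changes of -3.10 ± 0.83 (edgeR adjusted p = 0.0102) and -5.10 ± 0.91 (edgeR adjusted p = 0.0015).

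These 4 genes had their pituitary signal mainly in the brain-rich libraries. In the 5 pituitary libraries with a share under 1%, their mean was 0.125% of the hypothalamus mean for KCNJ4, 0.982% for KCNQ3, 1.26% for KCNS2 and 1.57% for KCNIP2. In the other 3 pituitary libraries their mean was 41.5, 5.61, 6.19 and 8.38 times that of the 5. KCNJ4 is itself 1 of the 72 genes behind the share. Of the 49 members of at least 1 FPKM in hypothalamus, 6 were higher in all 3 brain-rich libraries than in each of the other 5, namely these 4 with KCNC2 and KCNK15; 8.18% of all 11714 genes at that level met the same rule. Without the libraries that stand apart, the floor-water log2 fold changes were -8.51 for KCNJ4, -6.81 for KCNS2 and -5.48 for KCNIP2. KCNAB2, at 25% of its hypothalamus mean in the 5 libraries and a ratio of 0.782, and KCND3, at 31.7% and 1.13, showed no such step, as the plot of 8 members across pituitary libraries shows. The part of admixed brain tissue in these levels was not tested.

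**Figure D4:**
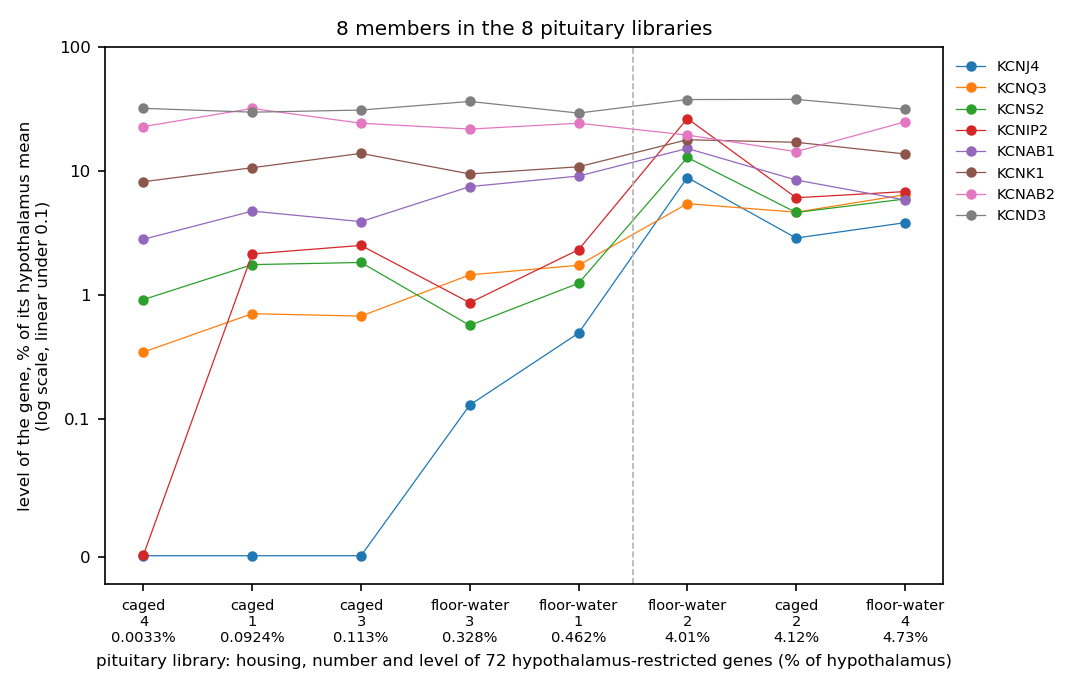
Level of 8 members in each pituitary library as a percentage of the member's mean over the 8 hypothalamus libraries (y axis, log scale, linear under 0.1); libraries are ordered by their level of 72 hypothalamus-restricted genes, given under each, and the dashed line parts the 5 libraries under 1% from the other 3. KCNJ4, KCNQ3, KCNS2 and KCNIP2 step up to the right of the line, whereas KCNAB2 and KCND3 stay between 14% and 38% throughout.

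Many of the abundant hypothalamus channels were lower in pituitary without being at background there. KCNAB1 ranged from 1.44 to 7.78 FPKM in pituitary, with log2 fold changes of -3.48 ± 0.28 (edgeR adjusted p = 1.4e-05) in floor-water and -3.69 ± 0.32 (edgeR adjusted p = 5.21e-05) in caged ducks. KCNAB2 fell less, to 6.90 to 15.4 FPKM, with log2 fold changes of -2.12 ± 0.20 (edgeR adjusted p = 2.58e-05) and -1.51 ± 0.26 (edgeR adjusted p = 0.00136). KCNK1 ranged from 3.54 to 7.72 FPKM, with log2 fold changes of -2.88 ± 0.23 (edgeR adjusted p = 1.28e-05) and -2.54 ± 0.24 (edgeR adjusted p = 7.37e-05). KCNC1 and KCNC2 moved alike: KCNC1 by -2.84 ± 0.20 (edgeR adjusted p = 9.71e-06) and -2.93 ± 0.18 (edgeR adjusted p = 1.77e-05), KCNC2 by -2.73 ± 0.18 (edgeR adjusted p = 6.98e-06) and -2.72 ± 0.22 (edgeR adjusted p = 4.12e-05). An entry listed by a locus number and described as KCNC1 averaged 1.69 FPKM (caged) and 2.28 FPKM (floor-water) in hypothalamus and 0.425 and 0.543 FPKM in pituitary.

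A-type pores differed in size of change. KCND2 ranged from 8.38 to 14.2 FPKM in hypothalamus and from 0.407 to 1.29 FPKM in pituitary, with log2 fold changes of -3.62 ± 0.26 (edgeR adjusted p = 9.93e-06) and -3.81 ± 0.29 (edgeR adjusted p = 3.38e-05). KCND3 ranged from 4.69 to 6.05 FPKM in pituitary, with log2 fold changes of -1.44 ± 0.16 (edgeR adjusted p = 6.1e-05) and -1.16 ± 0.13 (edgeR adjusted p = 0.000135). The ether-a-go-go channel KCNH1 measured at most 0.237 FPKM in pituitary, against 0.917 to 1.74 FPKM in hypothalamus. Its log2 fold change was -3.68 ± 0.46 (edgeR adjusted p = 0.000139) in floor-water and -2.53 ± 0.88 (edgeR adjusted p = 0.0356, and 0.0616 with the library number as a block) in caged ducks, where it was called in 9 of 17 alternative settings and not without the libraries that stand apart (edgeR adjusted p = 0.121). KCNIP4, another partner of A-type pores, ranged from 9.12 to 14.1 FPKM in hypothalamus and from 3.67 to 7.45 FPKM in pituitary, with log2 fold changes of -0.70 ± 0.17 (edgeR adjusted p = 0.00604) and -0.96 ± 0.17 (edgeR adjusted p = 0.00153).

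Most other two-pore channels were lower in pituitary too. KCNK10 and KCNK2, mechanically gated background channels, ranged from 1.75 to 3.86 FPKM and from 2.44 to 4.17 FPKM in hypothalamus, and from 0.0319 to 0.455 FPKM and 0.0754 to 0.864 FPKM in pituitary. KCNK10 had log2 fold changes of -3.74 ± 0.58 (edgeR adjusted p = 0.0005) and -3.83 ± 0.56 (edgeR adjusted p = 0.000547), and KCNK2 of -2.58 ± 0.51 (edgeR adjusted p = 0.00218) and -2.08 ± 0.24 (edgeR adjusted p = 0.000165). KCNK15, which gives no current alone in mammals, changed by -2.09 ± 0.20 (edgeR adjusted p = 3.41e-05) and -2.23 ± 0.23 (edgeR adjusted p = 9.35e-05). KCNK13, of the same group as KCNK12, was called in caged ducks, at -1.81 ± 0.28 (edgeR adjusted p = 0.000704), and not in floor-water ducks, at -0.80 ± 0.41 (edgeR adjusted p = 0.125). KCNK5, an alkaline-activated channel, was called higher in floor-water ducks, at 0.86 ± 0.32 (edgeR adjusted p = 0.0433), but in 6 of 17 alternative settings only, and not without the libraries that stand apart (edgeR adjusted p = 0.095). In caged ducks KCNK5 was at -0.58 ± 0.36 (edgeR adjusted p = 0.205). KCNK9, an acid-sensitive background channel, was not called, at -0.01 ± 0.35 and 0.31 ± 0.33. A further entry described as KCNK9 averaged 0.662 FPKM (caged) and 1.08 FPKM (floor-water) in hypothalamus and 0.618 and 0.433 FPKM in pituitary. The level of KCNK9 alone is therefore uncertain.

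The G protein-gated inward rectifiers, which hormones and transmitters open through their receptors, split by subunit. KCNJ3 measured 2.81 to 10.6 FPKM in pituitary, with log2 fold changes of -1.45 ± 0.34 (edgeR adjusted p = 0.00502) and -1.22 ± 0.27 (edgeR adjusted p = 0.00491). KCNJ6 measured 1.59 to 2.93 FPKM in hypothalamus and 0.642 to 1.47 FPKM in pituitary, with log2 fold changes of -1.05 ± 0.25 (edgeR adjusted p = 0.0063) and -1.06 ± 0.23 (edgeR adjusted p = 0.00393). KCNJ5 overlapped between tissues, at 3.38 to 6.52 FPKM in hypothalamus and 3.43 to 9.94 FPKM in pituitary. An entry listed by a locus number and described as the KCNJ5 product averaged 0.45 FPKM (caged) and 0.259 FPKM (floor-water) in hypothalamus and 0.0457 and 0.246 FPKM in pituitary. A further entry described as a copy of the KCNJ3 product averaged 18.9 FPKM (caged) and 23.5 FPKM (floor-water) in hypothalamus and 3.51 and 3.94 FPKM in pituitary, so the level of KCNJ3 alone is uncertain. KCNJ8, the pore of the vascular ATP-sensitive channel, was called in neither housing, at 1.19 to 2.35 FPKM in hypothalamus and 1.11 to 2.93 FPKM in pituitary.

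Of the calcium- and sodium-activated pores, KCNT1, a sodium-activated channel, ranged from 4.09 to 7.09 FPKM in hypothalamus and from 0.281 to 1.17 FPKM in pituitary, with log2 fold changes of -2.66 ± 0.34 (edgeR adjusted p = 0.000165) and -2.98 ± 0.35 (edgeR adjusted p = 0.000191). KCNN2 changed by -0.82 ± 0.18 (edgeR adjusted p = 0.00413) and -0.61 ± 0.18 (edgeR adjusted p = 0.0195), the latter not called without the libraries that stand apart (-0.69, edgeR adjusted p = 0.0942). KCNN3 was among the steadiest members in pituitary, at 9.36 to 10.1 FPKM in caged and 7.32 to 8.91 FPKM in floor-water libraries.

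Genes that work with these channels, from lists chosen by function, were examined beside them. Of 15 channel partners, 4 were called higher and 7 lower in pituitary in each housing. For this list and those below, the shares of all genes called higher and lower were 28.5% and 27.8% in floor-water and 27.3% and 26.8% in caged ducks. DPP6 and DPP10, which accompany KCND pores, changed by -2.95 ± 0.27 (edgeR adjusted p = 2.52e-05) and -2.56 ± 0.24 (edgeR adjusted p = 2.69e-05) in floor-water ducks, and LRRC26, a gamma subunit of the large-conductance channel, by 3.90 ± 0.90 (edgeR adjusted p = 0.00477). ABCC8, the sulfonylurea receptor of endocrine ATP-sensitive channels, was higher in pituitary by 1.14 ± 0.23 (edgeR adjusted p = 0.00246). Of 6 potassium pump and cotransporter genes found, 1 was called higher and 4 lower in each housing. SLC12A5, the neuronal potassium-chloride cotransporter, changed by -3.87 ± 0.33 (edgeR adjusted p = 1.82e-05) in floor-water ducks. Of 5 other potassium-permeable channel genes found, 4 were called lower in floor-water ducks, and 3 lower and 1 higher in caged ducks.

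Housing was compared within each tissue. In hypothalamus, edgeR called 0 of the 60 members tested, as it called 0 of all 15736 genes tested (0.0%). At an unadjusted p under 0.05 there were 4 members higher and 12 lower in caged ducks, against 5.65% and 3.65% of all genes. DESeq2 called 1 member, KCNK12, which was lower in caged ducks, and 1.54% of all genes. The median log2 fold change, caged minus floor-water, was -0.17, against 0.004 over all genes tested. It was below 0 for 38 members, including 18 of 27 voltage-gated subunits and 6 of 8 two-pore channels. A p that misses the threshold does not show that levels were the same.

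The summed level of all members was 398 to 442 FPKM in caged and 468 to 534 FPKM in floor-water hypothalamus, and the groups did not overlap. The 5 neuron markers summed to 2450, 2310, 2060 and 1680 FPKM in caged libraries and 2410 to 2450 FPKM in floor-water libraries. Caged library 4, the lowest of these, was the library with a pituitary share of 21.6%. The part of this difference in neuron markers in the members' levels was not tested. Without caged libraries 2 and 4 the members' median was -0.07. With each library left out in turn, library 4 included, it was more negative, as given below. Caged library 2 had a pituitary share of 0.029%, and the caged libraries kept, 1 and 3, had 3.2% and 4.33%. The highest share in floor-water hypothalamus was 1.11%. Leaving out caged libraries 2 and 4 therefore does not make the groups alike in pituitary share.

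In every caged library compared with every floor-water hypothalamus library, 4 members were lower and 4 higher, against 1.35% and 4.4% of all genes. KCNC2 measured 32.4, 32.6, 33.6 and 28.3 FPKM in caged and 40.2, 43.3, 41.6 and 33.8 FPKM in floor-water libraries, a log2 fold change of -0.37 ± 0.11 (edgeR adjusted p = 0.386). Its groups lay close to each other, with the highest caged library at 33.6 FPKM and the lowest floor-water library at 33.8 FPKM. KCNF1 measured 15.5 to 17.2 FPKM in caged and 17.8 to 24.8 FPKM in floor-water libraries, at -0.39 ± 0.13 (edgeR adjusted p = 0.443), and KCNG4, a silent subunit too, 1.04 to 2.88 and 2.90 to 3.38 FPKM, at -0.69 ± 0.29 (edgeR adjusted p = 0.509).

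KCNAB1 had the smallest unadjusted p of the members in hypothalamus, at 0.00604, with a log2 fold change of -0.61 ± 0.17 (edgeR adjusted p = 0.383). Its library values, given above, overlap between 45.8 and 47.4 FPKM. KCNK12, a two-pore channel that gives little current alone in mammals, measured 3.99, 3.02, 3.89 and 2.11 FPKM in caged and 7.38, 12.7, 8.45 and 2.80 FPKM in floor-water libraries. Floor-water libraries 1, 2 and 3 were above all caged ones, and library 4 was the lowest of its group in both housings. Its log2 fold change was -1.32 ± 0.41 (edgeR adjusted p = 0.41; DESeq2 adjusted p = 0.0483). The authors' deposited table marks KCNK12 at a fold of 0.416 (q = 0.0615), KCNJ4 at 0.428 (q = 0.714), KCNQ1 at 2.87 (q = 0.323) and KCNV1 at 2.16 (q = 0.679), caged over floor-water, among 2.09% of its entries marked.

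Members on the higher side were mostly of low level in hypothalamus. KCNQ1 measured 0.132, 0.129, 0.370 and 0.338 FPKM in caged and 0.0993, 0.0396, 0.0724 and 0.126 FPKM in floor-water libraries, without overlap, a log2 fold change of 1.46 ± 0.47 (edgeR adjusted p = 0.431). KCNV1 had a log2 fold change of 1.07 ± 0.50 (edgeR adjusted p = 0.554), which was 0.36 without caged library 4 and 0.18 with the pituitary share as a covariate. KCNMB4, at 5.97 to 8.10 against 4.03 to 6.04 FPKM, had 0.51 ± 0.19 (edgeR adjusted p = 0.48). With the covariate KCNQ1 was at 0.81 and KCNMB4 at 0.55. These 3 are among the members higher in pituitary. Pituitary shares ran from 0.029% to 21.6% in caged and 0.0327% to 1.11% in floor-water hypothalamus libraries. KCNV1 was highest in caged library 4, with a share of 21.6%. KCNQ1 was highest in caged library 3 (share 4.33%) and KCNMB4, at 8.10 FPKM, in caged library 2 (share 0.029%). KCNRG, called higher in pituitary in floor-water ducks only, measured 3.57 to 7.34 FPKM in caged and 3.0 to 3.98 FPKM in floor-water hypothalamus. Its log2 fold change was 0.59, at an unadjusted p under 0.05 (edgeR), and 0.85 with the covariate. It was highest in caged library 2. The part of admixed pituitary tissue in these values was not tested. KCNQ5 and KCNT2 were also higher without overlap, at 0.59 ± 0.27 (edgeR adjusted p = 0.54) and 0.66 ± 0.40 (edgeR adjusted p = 0.658). KCNJ13, a channel of choroid plexus epithelium, measured 0.0459, 0.622, 0.0514 and 0.0380 FPKM in caged and 0.00664 to 0.0380 FPKM in floor-water libraries, its highest value being in the library rich in TTR.

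In pituitary, edgeR called 0 of the 59 members tested and 0 of all 15582 genes tested (0.0%). At an unadjusted p under 0.05 there were 0 members higher and 3 lower in caged ducks, against 1.71% and 2.59% of all genes, and DESeq2 called 0 members and 0.244% of all genes. The log2 fold change was below 0 for 44 members, with a median of -0.37 against -0.007 over all genes. The median was -0.20 with the hypothalamus share as a covariate, -0.19 over genes of at least 1 FPKM, and -0.26 without floor-water library 2. The 3 brain-rich pituitary libraries were 1 caged and 2 floor-water ones.

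KCNMB1, whose pituitary values are given above, was lower in caged ducks, with the 2 highest libraries being floor-water 1 and 2. Its log2 fold change was -1.56 ± 0.62 (unadjusted p = 0.0298; edgeR adjusted p = 1.0), and -1.06 without floor-water library 2. The same 2 libraries were highest for PECAM1, an endothelial marker, at 3.36 and 4.31 FPKM against 1.24 to 2.15 FPKM in the other 6, and for CDH5, but not for CLDN5, FLT1 or PDGFRB. The 5 vessel markers found summed to 33.5 and 43.1 FPKM in these libraries against 21.2 to 32.6 FPKM in the other 6. Floor-water library 1 also held 130 FPKM of the 2 skeletal muscle markers found, against 0.995 to 58.1 FPKM in the other 7. The part of vessel or muscle content in KCNMB1 was not tested. In the authors' deposited table it is the only member marked for pituitary, at a fold of 0.303 (q = 0.699), among 1.41% of entries marked. KCNAB1 had -0.83 ± 0.36 (edgeR adjusted p = 1.0) and KCNK5 had -0.80 ± 0.34 (edgeR adjusted p = 1.0), which was -0.49 without floor-water library 1. KCNN3 was the only member whose groups did not overlap, at 0.34 ± 0.16 higher in caged ducks (edgeR adjusted p = 1.0); 0.558% of all genes were higher and 1.78% lower without overlap. KCNH6 stood at 0.64 ± 0.32 (edgeR adjusted p = 1.0), with 3 of 4 caged libraries above all floor-water libraries. It was 0.40 without caged library 3 and 0.09 with the hypothalamus share as a covariate. Its value was 0.88 without caged library 2 and 0.70 without the libraries that stand apart.

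**Figure D5:**
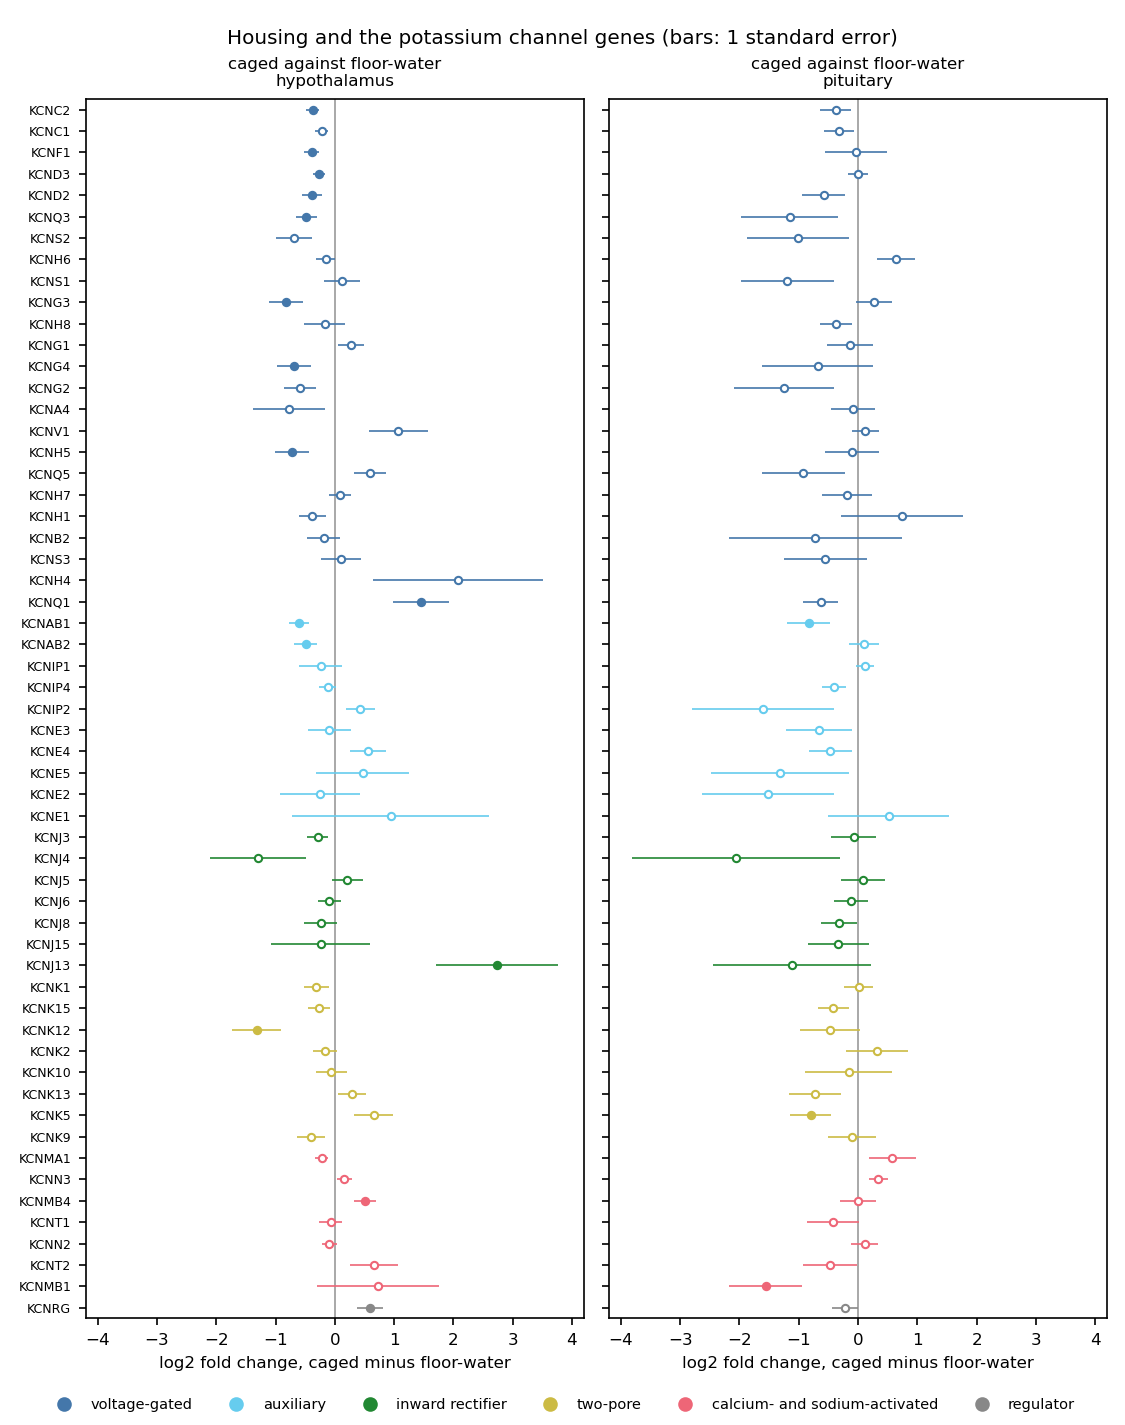
Log2 fold change, caged minus floor-water, of tested members in hypothalamus (left) and pituitary (right), with bars of 1 standard error from edgeR; filled points have an unadjusted p under 0.05, and no member passed the adjusted threshold. Members lie left of 0 more often than right, 38 of 60 in hypothalamus and 44 of 59 in pituitary, counted with 3 members that are not drawn.

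The difference between the 2 cage effects, pituitary minus hypothalamus, is the same contrast as the difference of the tissue effects between housings. EdgeR called 0 of 60 members and 0 of all 17010 genes tested (0.0%). At an unadjusted p under 0.05 there were 2 members higher and 5 lower, against 1.85% and 5.36% of all genes, with a median of -0.22 against -0.062 over all genes. KCNQ1 had the smallest p. It was higher in caged hypothalamus by 1.46 and measured -0.63 ± 0.29 in pituitary, a difference of -2.09 ± 0.56 (unadjusted p = 0.00187; edgeR adjusted p = 0.32). DESeq2 called it, at -2.07 (DESeq2 adjusted p = 0.0364), as its only member and among 0.77% of all genes. KCNK5 measured -1.46 ± 0.49 (edgeR adjusted p = 0.47), from 0.66 in hypothalamus, which was 0.26 without caged library 3, and -0.80 in pituitary. KCNRG measured -0.82, at an unadjusted p under 0.05 (edgeR). KCNG3, a silent subunit at 2.94 to 5.74 FPKM in caged and 3.70 to 8.28 FPKM in floor-water hypothalamus, measured 1.08 ± 0.43 (edgeR adjusted p = 0.568), and KCNE4, an inhibitory partner of KCNQ1 in mammals, -1.05 ± 0.46 (edgeR adjusted p = 0.65). None of the calls made between tissues in 1 housing alone was therefore shown by edgeR to differ between housings.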

How the data were processed

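Gene counts per library were deposited by the authors, with FPKM, in which the authors list genes without reads at 0.0001. Their comparison tables, per the file headers, give a fold of mean FPKM, its log2 value, a p-value and a q-value. Read trimming, alignment and quantification tools (cutadapt, HISAT2 and StringTie 1.3.4d) and DESeq2 are listed per the submitters' processing notes; genome build and strandedness: not given in the sources used here. Of the 63 members, 62 matched a reference gene table of a Pekin duck assembly, used for names and neighbours only, and 21 further entries described as potassium channels but listed by locus number were not members.

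Counts were tested with edgeR 4.0.16 (R 4.3.3): quasi-likelihood test, TMM scaling, filterByExpr, Benjamini-Hochberg adjustment over all genes tested. Each comparison used its own 8 libraries, and the interaction all 16. Other settings tried were limma 3.58.1 on log2 FPKM (pseudocounts of 1 and 0.1), DESeq2 1.42.0, median ratio scaling, other filters, 1 fit of all libraries, the other-tissue share as a covariate, the library number as a block, and leaving out libraries. The fold limit and the interaction without libraries that stand apart were added after seeing the data. The procedures were tested on simulated counts.

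The members and lists were chosen with earlier results of these data known. Named were, by a fixed rule, the highest members of each family and tissue, the largest called tissue differences without overlap, the smallest p-values of the housing comparisons, members marked by the authors, and 20 fixed channels, of which 14 were found; the rest are not analysed here. A few genes are counted in the totals but not reported here by name or drawn in the plots of all members. KCND3, KCNG4, KCNH7, KCNJ13, KCNK9 and the partner genes named were chosen after their values were seen. None of 6 erythrocyte markers was found by symbol.

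Between the caged tissues, deviations from group means correlated for all 4 library numbers (r = 0.128 to 0.200). Between the floor-water tissues the same r was 0.07 to 0.178. Caged and floor-water pituitary libraries numbered 2, from different ducks, reached r = 0.287. Libraries of unlike number were not compared, so these values cannot show whether the numbers pair the tissues. The main fits used no block. No libraries were duplicates (chi-square per degree of freedom at least 68.2 within groups). The labels do not say that libraries come from separate birds, so p-values measure the spread between these libraries. Counting error is small beside it except for genes near 0.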

Additional observations from a re-analysis of the deposited data

Results flagged for a closer look

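In 10 cases a value lay far from the other 3 libraries of their group, among 164 groups of 4 examined for 41 members; chance flags about 1 in 20 groups. In caged hypothalamus library 4, KCNV1 stood at 5.29 FPKM (others 1.22 to 1.89), KCNIP1 at 28.2 FPKM (10.6 to 12.8) and KCNQ5 at 2.31 FPKM (1.73 to 1.83). In caged pituitary library 2, KCNJ4 stood at 0.400 FPKM (others listed at 0) and KCNQ3 at 0.493 FPKM (0.0367 to 0.0749). Single flags were KCNE3 at 8.35 FPKM in caged pituitary library 4 (3.12 to 3.81), KCNMA1 at 6.21 FPKM in caged pituitary library 1 (4.42 to 4.63) and KCNJ8 at 1.99 FPKM in caged pituitary library 3 (1.29 to 1.40). The last 2 were KCNJ5 at 6.10 FPKM in floor-water hypothalamus library 4 (3.47 to 3.72) and KCNJ6 at 1.47 FPKM in floor-water pituitary library 4 (0.739 to 0.850).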

How the results depend on the processing

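Between tissues, 0 of the 42 members called in floor-water and 0 of the 41 called in caged ducks changed sign under any alternative run, whereas 4 of 17 and 8 of 18 members not called did. These runs refit the same libraries. Calling already sorts members by their distance from 0 beside their spread, so the contrast is no separate support for the calls. In caged tissues KCNIP1 (-0.07) was at 0.06 with the block, 0.31 without the libraries that stand apart and -0.21 to 0.39 with each library left out. KCNQ5 (0.09) was at -0.29 and -0.74 with limma (pseudocounts of 1 and 0.1), -0.40 with the block and -0.33 to 0.44 with each library left out. KCNT2 (0.33) was at -0.05 and -0.18 with limma and -0.08 to 0.54 with each library left out, and KCNJ8 was at -0.05 and -0.07 with limma. DESeq2 called 1 member lower in caged hypothalamus (KCNK12) and 1 lower in the interaction (KCNQ1), where edgeR called 0. Limma on log2(FPKM + 1) gave medians of -0.06 (hypothalamus housing), -0.13 (pituitary housing), -0.74 (both tissue comparisons) and -0.08 (interaction); log2(FPKM + 0.1) gave -0.26 for pituitary housing, -1.24 for floor-water and -1.47 for caged tissues. Without the libraries that stand apart the medians were -0.07, -0.24, -0.96 and -1.39 in that order of comparisons. Between the caged tissues, 4 members were then called higher in pituitary than in hypothalamus instead of 8. Fewer libraries entered those fits. For pituitary housing the median was -0.19 over genes of at least 1 FPKM and -0.20 with the share as a covariate; the cause was not tested. Leaving out each library gave medians of -0.20 to -0.12 (hypothalamus), -0.37 to -0.26 (pituitary), -1.11 to -0.94 (floor-water tissues), -1.33 to -1.09 (caged tissues) and -0.34 to -0.05 (interaction), with 9 to 11 higher and 27 to 30 lower calls in floor-water tissues and 8 to 9 and 26 to 34 in caged tissues. With the library number as a block, 9 higher and 29 lower calls were made in caged tissues and 9 and 31 in floor-water tissues. In that setting 0 were made in the housing comparisons and the interaction. Whether the numbers pair the libraries is not known. A log2 fold of at least 1 left 9 and 28 calls in floor-water and 6 and 30 in caged tissues. Shares of all genes called between tissues in these other settings are not given here, so the counts describe the members only. Depth limits what can be said of members near 0, such as KCNK18, KCNJ1 and KCNV2.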

Other observations

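A pattern seen in the values concerns hypothalamus library 4 of both housings. Of the 49 members of at least 1 FPKM in hypothalamus, 15 were lowest in library 4 of the caged group and also in library 4 of the floor-water group, among them KCNJ4, KCNK12, KCNS2, KCNG3 and KCNRG. Any other pairing of a caged with a floor-water library shared 0 to 5 such members. However, each library 4 was the lowest of its group for more members than any other library of that group. That alone raises the number shared, and the number it would give was not computed. The count therefore does not show that the libraries numbered 4 are linked. The same count over all genes is not given here, so whether the pattern is particular to the members cannot be said. KCNK1, KCNC1, KCNIP1 and KCNG1 were highest in both libraries 4, KCNK1 at 51.4 and 65.9 FPKM against 32.9 to 46.7 FPKM in the other 6. More members, 10, were highest in both caged library 1 and floor-water library 2. The 3 oligodendrocyte markers found summed to 6590 and 8200 FPKM in these libraries, against 3420 to 5460 FPKM in the other 6. Caged library 4 also had the lowest sum of neuron markers and a pituitary share of 21.6%, against 0.269% in floor-water library 4. The labels do not say that the number 4 stands for anything shared, and the part of tissue composition in this pattern was not tested.

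Some channels described in the table without a KCN symbol were measured as well. An entry described as the beta-2 subunit of the calcium-activated channel averaged 3.55 FPKM (caged) and 3.89 FPKM (floor-water) in hypothalamus, and 0.557 and 1.15 FPKM in pituitary. One described as an inward rectifier potassium channel averaged 4.63 and 5.48 FPKM in hypothalamus and 0.0629 and 0.207 FPKM in pituitary. They were not tested here.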
